A study of Rattus norvegicus with 19 samples.

Results

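The 10 genes described here, *Ttr*, *Kl*, *Folr1*, *Clic6*, *Kcnj13*, *Otx2*, *Aqp1*, *Kcne2*, *Prlr* and *Sostdc1*, are markers of the choroid plexus, and they were chosen by symbol from the 32623 genes in the count files. Their level in each library was taken as a gauge of how much choroid plexus tissue had come along with the hippocampus at dissection. RNA was sequenced from hippocampi of adult male Sprague Dawley rats, an outbred strain, of 4 genotypes. The wt group (6 libraries) carried 2 copies of the Sult1a1-Spn interval, the segment of rat chromosome 1 homologous to human 16p11.2. Del/+ rats (4 libraries) carried 1 copy after CRISPR/Cas9 deletion of the interval, Dup/+ rats (5 libraries) carried 3 copies after its duplication, and Del/Dup rats (4 libraries) carried both rearranged chromosomes and so 2 copies again. For wt replicate 5, 1 field of the label gave wt and another Dup/+. The library was counted as wt, and the level of its interval genes, given below, lay in the wt range.

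The choroid plexus is a folded epithelium over a core of vessels that hangs into the brain ventricles and secretes cerebrospinal fluid. In the lateral ventricle it lies against the fimbria, along the inner edge of the hippocampus, so that fragments of it can stay attached to a dissected hippocampus. Its epithelial cells make very large amounts of transthyretin (*Ttr*), the carrier of thyroid hormone in cerebrospinal fluid, and carry channels and receptors that the hippocampal tissue itself makes little of. A bulk library cannot tell fewer cells of a type from less RNA per cell, so the levels below gauge RNA and not cell numbers.

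Total gene counts ran from 16191192 to 38760645 reads per library, and 15440 genes passed the expression filter. The genotypes were checked on the interval genes: all 16 of the list that were tested were lower in Del/+ and all 16 were higher in Dup/+, with 0 called in Del/Dup. Reads aligned to more than 1 place (the multi-mapped share) made up over 55% in 7 libraries, Del/+ replicates 1 to 3 and every Del/Dup library, and 40.1% to 50.5% in the others. The labelled tissue was checked on 7 hippocampal genes, of which 5 were tested, and their summed level was 741 to 1271 counts-per-million (CPM) over the 19 libraries. Of these, *Wfs1*, which marks pyramidal neurons of field CA1, stood at 191 to 532 CPM and *Neurod6*, a transcription factor of pyramidal neurons, at 189 to 275 CPM, while *Fibcd1* was listed at 0. The summed level of the 16 interval genes was 2895 CPM in wt replicate 5. The wt libraries ran from 2881 to 3067 CPM in that sum and the Dup/+ libraries from 4120 to 4446 CPM.

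Because the markers moved together, the promoters are the sequences shown first. RefSeq promoter windows of the GRCr8 assembly, from 250 bases before to 50 bases after the start of the gene, were at hand for 5 of the 10 genes (*Ttr*, *Kl*, *Kcnj13*, *Aqp1* and *Prlr*, the last with 2 starts). The windows of *Ttr* (chr18:12218508-12218807, plus strand) and *Kl* (chr12:5325753-5326052, plus strand) are printed because these were the markers whose Del/Dup and wt libraries did not overlap, with each CG dinucleotide in capitals:
Ttr: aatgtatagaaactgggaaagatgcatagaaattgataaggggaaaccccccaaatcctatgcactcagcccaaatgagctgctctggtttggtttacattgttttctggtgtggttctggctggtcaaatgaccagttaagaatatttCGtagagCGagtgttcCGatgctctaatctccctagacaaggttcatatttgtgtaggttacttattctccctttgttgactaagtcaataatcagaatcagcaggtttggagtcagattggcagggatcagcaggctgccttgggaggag
Kl: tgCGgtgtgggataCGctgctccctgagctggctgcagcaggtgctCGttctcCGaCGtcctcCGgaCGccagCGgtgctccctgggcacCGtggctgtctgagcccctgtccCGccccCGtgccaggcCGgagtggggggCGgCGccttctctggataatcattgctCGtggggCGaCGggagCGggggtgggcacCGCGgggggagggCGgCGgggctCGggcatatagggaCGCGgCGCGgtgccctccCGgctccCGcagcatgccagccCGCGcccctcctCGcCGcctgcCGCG
The *Ttr* window had a GC content of 43.7% and 3 CG dinucleotides, and the *Kl* window had 75.0% and 35, against medians of 51.7% and 7 over 33469 promoters. The letters TAATCC, the core site of Otx factors, were searched on both strands and were in 0 of the 6 windows, while 7.17% of all promoters held them. The letters TATAAA, a search added after the data had been seen, were in the windows of *Aqp1* and *Kcnj13*, starting 30 and 46 bases before the start, and in 14.2% of all promoters. A match or its absence describes these letters in these windows only.

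*Ttr* (ENSRNOG00000016275) varied widely between animals within every genotype. In wt it ranged from 0.921 to 27.4 CPM with a median of 3.36 CPM, and 2 of the 6 libraries, replicates 4 and 6, stood at 27.4 and 26.2 CPM. The 4 Del/+ libraries were at 5.12, 2.38, 1126 and 81.5 CPM for replicates 1 to 4. The 5 Dup/+ libraries were at 2.85, 352, 6.81, 5.62 and 88.4 CPM for replicates 1 to 5. The 4 Del/Dup libraries were at 1087, 96.3, 500 and 34.4 CPM for replicates 2 to 5.

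Ordered by *Ttr*, the 8 highest libraries were 4 Del/Dup, 2 Del/+ and 2 Dup/+ libraries and the other 11 held all 6 wt libraries beside 2 Del/+ and 3 Dup/+ libraries. Del/+ replicate 3 and Del/Dup replicate 2 were highest and lay within 1.04-fold of each other, followed by Del/Dup replicate 4 and Dup/+ replicate 2. A gap of 3.65-fold separated these 4 from the next library, Del/Dup replicate 3. Another gap, of 3.85-fold, lay between wt replicate 6 and Dup/+ replicate 3. Under 10 CPM there were 9 libraries, of which 4 were wt, 2 Del/+, 3 Dup/+ and 0 Del/Dup. The group means with their SD were 10.7 ± 12.5 CPM (n = 6) in wt, 304 ± 549.6 CPM (n = 4) in Del/+, 91.1 ± 150.1 CPM (n = 5) in Dup/+ and 429 ± 484 CPM (n = 4) in Del/Dup, with an SD above the mean in every group.

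The channels and the other transport genes followed the same libraries. *Clic6* (ENSRNOG00000026870), a chloride intracellular channel protein, was at 0.369 to 1.82 CPM in wt (median 0.791 CPM). In Del/+ it stood at 0.865, 0.205, 36.4 and 2.45 CPM, in Dup/+ at 0.537, 15.7, 1.19, 0.539 and 2.93 CPM, and in Del/Dup at 33.3, 4.50, 20.4 and 1.33 CPM, in the order of the replicates. Del/+ replicate 3, Del/Dup replicates 2 and 4 and Dup/+ replicate 2 were again the highest, and each carrier group overlapped with wt. *Kcnj13* (ENSRNOG00000016057), the inward rectifier potassium channel Kir7.1 of the apical membrane, ranged from 0.213 to 0.891 CPM in wt and reached 12.3 CPM in Del/+ replicate 3 and 10.3 CPM in Del/Dup replicate 2. *Kcne2* (ENSRNOG00000029811), a small auxiliary subunit of potassium channels, ranged from 0.963 to 1.82 CPM in wt, with a maximum of 11.6 CPM in Del/Dup replicate 2. *Aqp1* (ENSRNOG00000011648), the water channel of the apical membrane, stood at 0.741 to 1.38 CPM in wt and at 0.311, 0.410, 15.2 and 1.40 CPM in Del/+. Its 2 lowest libraries of the series were thus Del/+ replicates 1 and 2, beside the highest in Del/+ replicate 3.

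The same 4 libraries were highest for the receptors. *Kl* (ENSRNOG00000001092), klotho, a co-receptor for a fibroblast growth factor, was at 0.522 to 2.47 CPM in wt (median 1.13 CPM). In Del/+ it was at 1.18, 1.23, 55.3 and 5.35 CPM, in Dup/+ at 0.908, 25.2, 1.25, 0.885 and 4.98 CPM, and in Del/Dup at 54.3, 6.91, 34.8 and 3.02 CPM. All 4 Del/Dup libraries lay above the 6 wt libraries, whereas Del/+ and Dup/+ overlapped with wt. *Folr1* (ENSRNOG00000019902), the folate receptor that moves folate into cerebrospinal fluid, ranged from 0.556 to 1.61 CPM in wt and reached 16.0 CPM in Del/+ replicate 3. *Prlr* (ENSRNOG00000057557), the prolactin receptor, was at 0.0532 to 0.318 CPM in wt. It was the receptor whose highest library was Del/Dup replicate 2, at 5.05 CPM, with Del/+ replicate 3 at 3.37 CPM.

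The secreted and nuclear regulators differed in detection. *Sostdc1* (ENSRNOG00000005770), a secreted antagonist of bone morphogenetic protein and Wnt signals, had no read in 2 of the 6 wt libraries and at most 0.597 CPM in the others. It reached 13.6 CPM in Del/+ replicate 3, 10.0 CPM in Del/Dup replicate 2, 6.39 CPM in Del/Dup replicate 4 and 4.46 CPM in Dup/+ replicate 2. *Otx2* (ENSRNOG00000048322), a homeobox transcription factor of the choroid plexus, was listed at 0 in all 19 libraries, including the 4 with the highest *Ttr*. A count of 0 allows up to 3 reads, which is 0.0774 to 0.185 CPM depending on the library, for counting error only. *Col1a2*, *Ogn*, *Cldn5* and *Fibcd1*, genes of the meninges, vessels and hippocampus, were also listed at 0 throughout, so the 0 of *Otx2* cannot be read as absence, and *Otx2* entered no test.

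**Figure D1:**
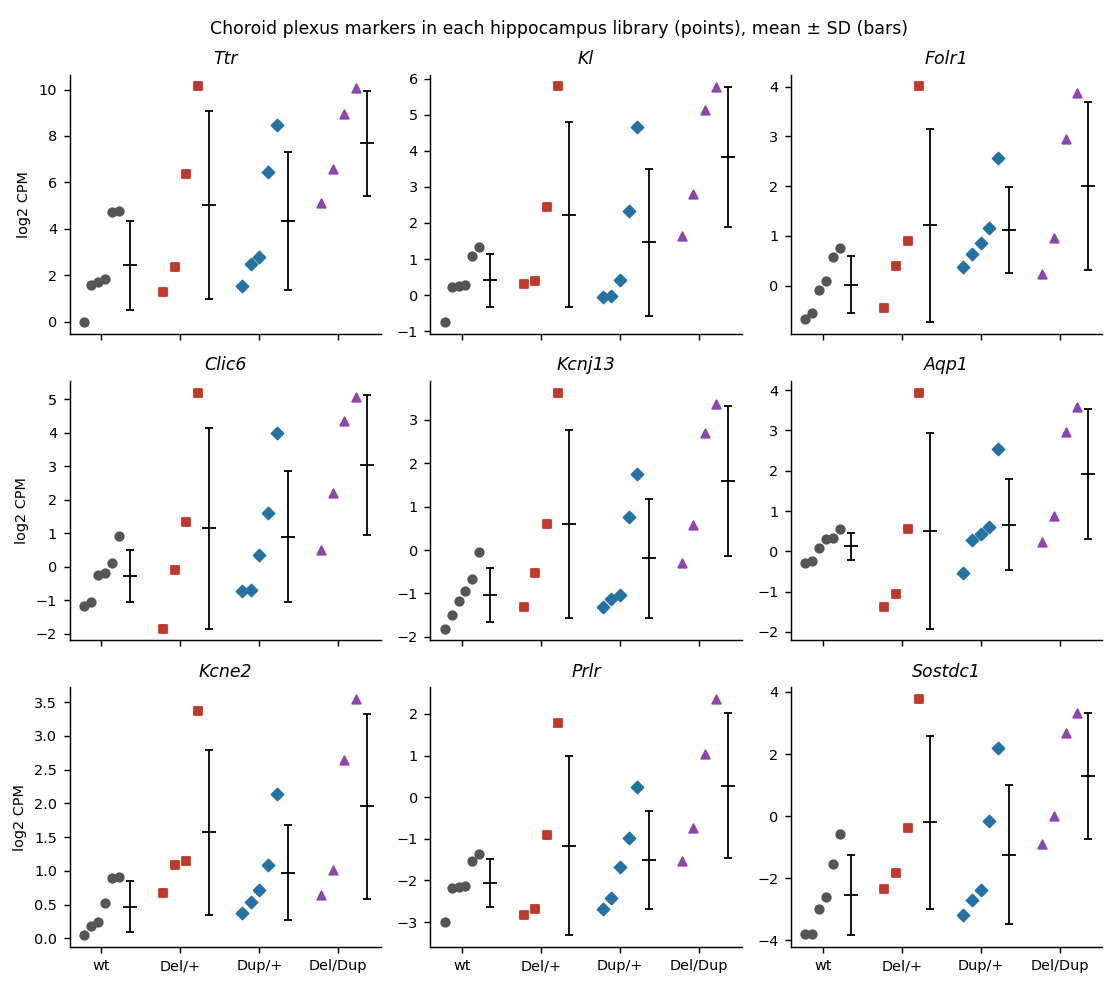
Level of the 9 detected markers in each library (points) by genotype on a log2 CPM scale, with the mean and SD of each group as bars. The same 4 libraries (1 Del/+, 1 Dup/+ and 2 Del/Dup) are highest for every marker, and the wt libraries stay in a narrower range.

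For each of the 9 detected markers the 4 highest of the 19 libraries were the same: Del/+ replicate 3, Del/Dup replicates 2 and 4 and Dup/+ replicate 2. The lowest of the 4 exceeded the highest of the other 15 libraries by 2.01-fold for *Kcne2*, 2.03-fold for *Kcnj13* and up to 4.74-fold for *Sostdc1*. Within these 4 libraries, per 1000 *Ttr* reads, there were 49.1 to 71.7 *Kl* reads, 30.6 to 44.7 *Clic6* reads and 9.14 to 12.4 *Kcne2* reads, and the highest proportion was 1.24 times the lowest for *Folr1* and 1.55 times for *Prlr*, the ends of the range over the 8 markers. These differences exceeded counting error for some markers, as for *Kl*, at 49.1 in Del/+ replicate 3 (95% exact binomial interval 47.0 to 51.3) and 71.7 in Dup/+ replicate 2 (66.4 to 77.3). In the other 15 libraries the proportions were wider, at 56.4 to 567 for *Kl*, 30.0 to 400.0 for *Clic6* and 20.1 to 1200.0 for *Kcne2*, with the highest in wt replicate 5.

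Over all 19 libraries, each marker was set against *Ttr* on the log2 CPM scale as deviations from its group mean, which removes differences between group means. Pearson's r was 0.96 for *Kl* and *Sostdc1*, 0.95 for *Clic6*, 0.93 for *Kcnj13*, 0.91 for *Prlr*, 0.87 for *Folr1*, 0.85 for *Aqp1* and 0.84 for *Kcne2*. All 8 had a two-sided permutation p = 1e-05 (the smallest that 100000 permutations can give), with p = 1.37e-05 after Benjamini-Hochberg adjustment over the 11 relations computed. Spearman's rho ran from 0.80 for *Kcne2* (permutation p = 7e-05, adjusted p = 9.62e-05) to 0.96 for *Clic6* (permutation p = 1e-05, adjusted p = 1.83e-05). Without Del/Dup replicate 2 and Del/+ replicate 3, the libraries farthest from the median of *Ttr*, r stayed between 0.78 for *Aqp1* and 0.95 for *Kl*. Del/Dup replicate 4 and Dup/+ replicate 2, also among the highest for every marker, stayed in, and r without them was not computed. Within the 12 libraries of low multi-mapped share r was 0.69 for *Aqp1* and 0.94 for *Kl* at the ends of its range, and within the 7 of high share it was 0.91 for *Kcne2* and 0.99 for *Sostdc1*. Over the 36 pairs among the 9 markers, r was 0.84 to 0.98.

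**Figure D2:**
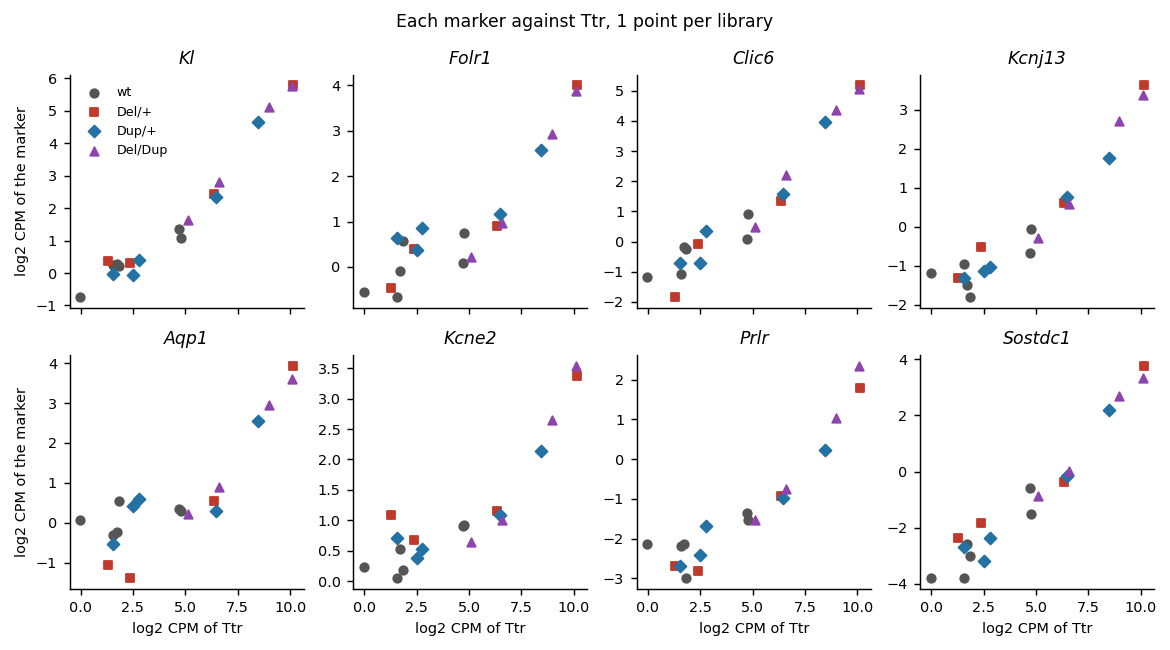
Log2 CPM of 8 markers against log2 CPM of *Ttr*, 1 point per library, with colour and shape for the genotype. Libraries of all 4 genotypes lie along 1 band in each panel, with r of 0.84 to 0.96 on deviations from the group means.

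Taken as deviations from group means too, the library measures moved less with *Ttr*. The multi-mapped share gave r = -0.32 (permutation p = 0.188, adjusted p = 0.188) with rho = -0.41 (permutation p = 0.0891, adjusted p = 0.098). The share differed mainly between groups, at 40.1% to 47.6% in wt and 57.8% to 70.7% in Del/Dup. Removing the group means takes that part out, so this relation cannot show how the share and *Ttr* go together between groups. The log2 total count gave r = 0.33 (permutation p = 0.165, adjusted p = 0.181) with rho = 0.31 (permutation p = 0.2, adjusted p = 0.2). The summed level of 9 genes of the ependyma, the ciliated lining of the ventricles, gave r = 0.56 (permutation p = 0.0131, adjusted p = 0.016) with rho = 0.44 (permutation p = 0.0587, adjusted p = 0.0718). That relation rested on few libraries, since r was 0.34 without the same 2 libraries, 0.10 within the 12 of low share and 0.92 within the 7 of high share.

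The spread of the markers between animals of 1 genotype was among the widest of all genes. The within-group SD of log2 CPM was 2.80 for *Ttr*, rank 3 of the 15440 genes tested, 2.06 for *Sostdc1* (rank 10), 1.97 for *Clic6* (rank 18) and 1.84 for *Kl* (rank 24). *Sostdc1* passed the filter through the libraries where it was high, so its rank is partly set by that filter. The SD was 0.92 for *Kcne2* (rank 134), the lowest of the 9, against a median of 0.135 over all tested genes.

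**Figure D3:**
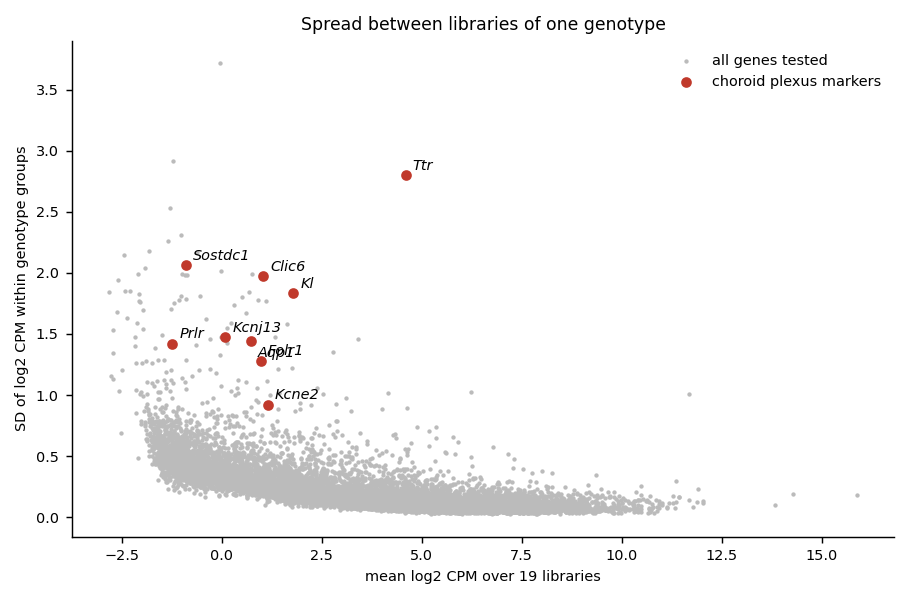
SD of log2 CPM within genotype groups against the mean log2 CPM of each gene over 19 libraries, with the 15440 tested genes in grey and the 9 markers in red. The markers lie above the cloud at their level, from 0.92 for *Kcne2* to 2.80 for *Ttr*.

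The question put to the genotypes was whether the carriers differed from wt in these markers. By edgeR's quasi-likelihood test with Benjamini-Hochberg adjustment, 0 of the 9 tested markers were called at an adjusted p under 0.05 in Del/+ against wt, where 0.771% of all tested genes were called. The counts were also 0 in Dup/+ against wt (0.272% of all genes), in Del/Dup against wt (0.0907%) and in Del/+ against Dup/+ (0.784%). At an unadjusted p under 0.05, the same test gave 9, 2, 9 and 0 of the 9 markers in these comparisons, against 18.4%, 8.94%, 16.2% and 13.5% of all genes. These counts include *Prlr* and *Sostdc1*, which passed the filter through the libraries where they were high, and fits of the 2 groups alone tested 7, 7 and 8 of the 9 in the comparisons with wt. In those fits all of the tested markers had an unadjusted p under 0.05, 7 of 7 in Del/+ (19% of all genes), 7 of 7 in Dup/+ (9.85%) and 8 of 8 in Del/Dup (14.7%), and 0 passed the adjustment. The Dup/+ count thus depended on whether the other genotypes were in the fit. The markers moved together over the libraries, with r of 0.84 to 0.98 in pairs. Each count of markers therefore reflects 1 shared pattern and not separate results. DESeq2 gave 2 of the 9 markers an adjusted p in Del/+ against wt (*Ttr* and *Kl*) and called both, where it called 6.93% of the 9453 genes that it gave one. The other 7 markers had none and were not judged there. In the other 3 comparisons it judged all 9 and called 0 in Dup/+ (0.518% of the genes judged), 4 in Del/Dup (1.19%) and 0 in Del/+ against Dup/+ (1.73%). The 3 comparisons with wt share the wt libraries and are given side by side.

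For *Ttr* the tests differed. In edgeR its log2 fold change, fitted to the group means of the counts, was 4.82 in Del/+ (SE 1.46, adjusted p = 0.101), 3.08 in Dup/+ (SE 1.36, adjusted p = 0.522), 5.32 in Del/Dup (SE 1.48, adjusted p = 0.144) and 1.74 in Del/+ against Dup/+ (SE 1.37, adjusted p = 0.628). DESeq2 gave nearly the same values but called *Ttr* in Del/+ (4.83, adjusted p = 0.0208) and in Del/Dup (5.33, adjusted p = 0.0248). On the mean of log2 CPM, which gives each library equal weight, the differences were 2.60 in Del/+ (exact permutation p = 0.186, adjusted over the 4 comparisons 0.312), 1.92 in Dup/+ (exact permutation p = 0.234, adjusted 0.312), 5.25 in Del/Dup (exact permutation p = 0.00952, adjusted 0.0381) and 0.69 in Del/+ against Dup/+ (exact permutation p = 0.794, adjusted 0.794). These tests were two-sided, and the splits available could reach a p of 0.00476 for 4 against 6 libraries.

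The higher *Ttr* of Del/Dup was present in 4 of 4 libraries, the lowest of which (34.4 CPM) was 1.25 times the highest wt library (27.4 CPM). *Ttr* and *Kl* were the 2 of 9 markers whose Del/Dup and wt libraries did not overlap, as was the case for 2.56% of all tested genes. In the other comparisons 0 of the 9 markers were free of overlap, against 4.94% of all genes in Del/+ against wt, 1.17% in Dup/+ against wt and 5.30% in Del/+ against Dup/+. Without wt replicate 4 the permutation difference of *Ttr* between Del/Dup and wt was 5.72 and without wt replicate 6 it was 5.71 (exact permutation p = 0.0159, adjusted 0.0635 in both). Without the 4 libraries highest in *Ttr*, a set chosen after the data had been seen, the edgeR value in Del/Dup was 2.60, given with no test because libraries were removed by the value compared. All Del/Dup libraries had a high multi-mapped share and all wt libraries a low one, so the genotype and that property cannot be told apart here.

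For 6 of the other 8 markers, those tested also in a fit of the 2 groups alone in each comparison with wt, the fitted log2 fold changes were positive in all 4 comparisons and ran from 1.52 for *Kcne2* (SE 0.53, adjusted p = 0.136) to 3.43 for *Kl* (SE 1.05, adjusted p = 0.104) in Del/+. In Dup/+ they ran from 0.62 for *Kcne2* (SE 0.52, adjusted p = 0.761) to 2.19 for *Kl* (SE 1.05, adjusted p = 0.555). In Del/Dup they ran from 1.92 for *Kcne2* (SE 0.54, adjusted p = 0.151) to 4.08 for *Kl* (SE 1.07, adjusted p = 0.133). Between Del/+ and Dup/+ they ran from 0.90 for *Kcne2* to 1.54 for *Kcnj13*. *Prlr* and *Sostdc1* rested on 32 and 28 reads over the 6 wt libraries and did not pass the filter with Del/+ and wt alone or Dup/+ and wt alone, nor did *Prlr* with Del/Dup and wt alone.

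Leaving out single libraries moved these values. Without Del/+ replicate 3, *Ttr* in Del/+ was 1.48, *Aqp1* was -0.49 and the number of markers at an unadjusted edgeR p under 0.05 went from 9 to 0, with 18.3% of all genes at that p. Without Dup/+ replicate 2, *Ttr* in Dup/+ was 1.27 and the number at an unadjusted p under 0.05 went from 2 to 0 (7.84% of all genes), while in Del/+ against Dup/+ it went from 0 to 8 (12.6%). The Dup/+ count was also 0 without any 1 of wt replicates 1, 2, 3 and 5, and it reached 5 without Del/+ replicate 3 (8.87%). Without Del/Dup replicate 2, *Ttr* in Del/Dup was 4.29 and 8 markers had an unadjusted p under 0.05, as had 8.29% of all genes. In Del/+ against Dup/+ all 9 values turned negative without Del/+ replicate 3, with *Ttr* at -1.61. With a term for a high multi-mapped share, *Ttr* was 2.92 in Del/+ and 3.11 in Del/Dup, and 0 markers had an unadjusted p under 0.05 in either, beside 13.1% and 12.0% of all genes.

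**Figure D4:**
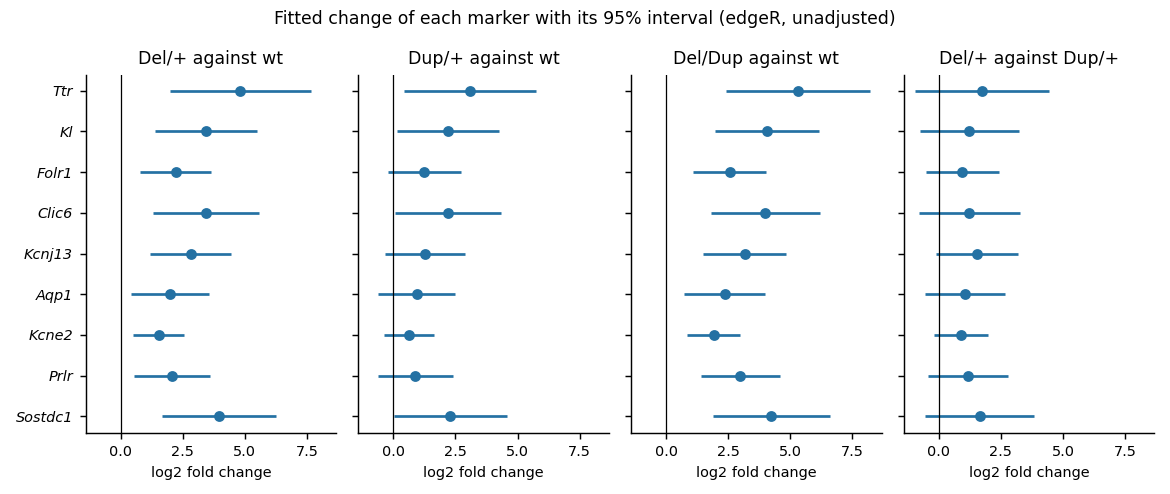
Fitted log2 fold change of the 9 tested markers (points) with unadjusted 95% intervals (lines) in the 4 comparisons, from edgeR. Every point lies right of 0 and none of the adjusted p-values was under 0.05, and the points of *Prlr* and *Sostdc1* rest on 32 and 28 wt reads.

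Genes with the pattern most like the markers were sought over all tested genes, by Pearson's r with an index, the mean of the centred log2 CPM of the 9 markers, on deviations from group means over the 19 libraries. The 10 highest outside the list were *F5* (coagulation factor V, r = 0.99), *Mfrp* (0.98), *Cldn2* (0.98), *Slc4a5* (0.98), *Slco1a2* (0.97), *Tmem72* (0.97), *Cltrn* (0.95), *Col8a1* (0.94), *Adipoq* (0.94) and *Abca4* (0.93). *Cldn2* is a tight junction protein of leaky epithelia and *Slc4a5* a bicarbonate transporter. Their highest library was Del/+ replicate 3 or Del/Dup replicate 2 in each case, such as 24.8 CPM for *F5* and 28.3 CPM for *Tmem72*, against medians of 0.901 and 1.06 CPM. The 3 lowest were *Taok2*, an interval gene (-0.84), *Csdc2* (-0.76) and *LOC100911186* (-0.74). In all, 41 genes outside the list reached r of 0.8, and edgeR called 0 of them in any comparison, while 0.0907% to 0.784% of all genes were called. At an unadjusted p under 0.05 the counts were 25, 2, 32 and 0 of the 41, beside 18.4%, 8.94%, 16.2% and 13.5% of all genes. The 41 genes were picked by their likeness to the markers in these same libraries. Their counts therefore repeat the result of the markers and add no test to it. Some of the 10 highest were near 0 in most libraries, such as *Adipoq* and *Cltrn* with medians of 0.0410 and 0.0597 CPM.

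Of 27 further genes of the choroid plexus, 26 were in the files and tested, and 16 of them reached r of 0.8 with the index. EdgeR called 0 of the 26 in each comparison with wt (0.771%, 0.272% and 0.0907% of all genes) and 1, *Calml4*, in Del/+ against Dup/+ (0.784% of all genes), where it was lower in Del/+ at -0.85 on the log2 scale (SE 0.16, edgeR adjusted p = 0.0103). The r of *Calml4* with the index was 0.68. Medians of the list were 0.77, 0.39, 0.95 and 0.40 in the 4 comparisons, and 20, 22, 24 and 20 of the 26 values were positive. At an unadjusted edgeR p under 0.05 there were 15, 3, 14 and 4 of the 26, beside 18.4%, 8.94%, 16.2% and 13.5% of all genes. Since 16 of the 26 moved with the index, these counts are not separate from those of the markers.

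**Figure D5:**
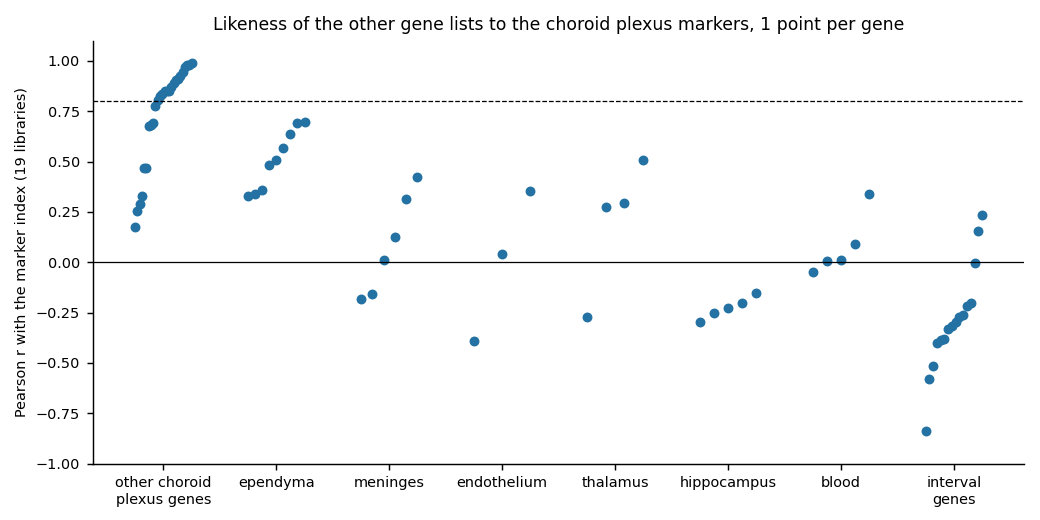
Pearson's r with the marker index over 19 libraries (deviations from group means), 1 point per gene, for 8 other gene lists, with a dashed line at 0.8. In the list of other choroid plexus genes 16 of 26 points reach the line, and in the other lists 0 do.

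Lists for the neighbouring tissues did not reach that likeness. The highest r was 0.70 among 9 ependymal genes, 0.42 among 6 genes of the meninges, 0.35 among 3 endothelial genes, 0.51 among 4 thalamic genes, -0.15 among 5 hippocampal genes and 0.34 among 5 blood genes. The summed ependymal level was 26.6 to 45.0 CPM in wt, 29.3 to 67.4 CPM in Del/+, 42.5 to 47.7 CPM in Dup/+ and 37.0 to 51.8 CPM in Del/Dup, and its part in the marker levels was not tested. EdgeR called 0 genes of the ependymal, endothelial and hippocampal lists, of 9, 3 and 5 tested, in any comparison, where 0.0907% to 0.784% of all genes were called. All 9 ependymal log2 fold changes were positive in each comparison with wt (medians 0.36 in Del/+, 0.37 in Dup/+ and 0.34 in Del/Dup). All 5 hippocampal values were negative in Del/+ and in Del/Dup (medians -0.16 and -0.24). In Del/+ against Dup/+ edgeR called 1 gene of the meninges (*Dcn*, 0.63) and 1 of the thalamus (*Prkcd*, 1.31), both named after their values were seen. Of the blood list, 3 globin entries of 5 genes tested were higher in Dup/+ than in wt (0.272% of all genes called) and 3 genes were lower in Del/+ than in Dup/+ (0.784% of all genes called). The summed thalamic level was 55.8 to 65.6 CPM in Del/+ and 27.8 to 39.3 CPM in wt, above wt also in the Del/+ libraries with *Ttr* under 10 CPM. *Kcne2* and *Clic6* lie near each other, with 5 protein-coding genes between them in the GRCr8 gene order, so that these 2 of the 9 markers share a chromosomal neighbourhood.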

How the data were processed

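Hippocampal RNA of 19 rats was measured in 4 genotype groups. The authors aligned 50-base single-end reads with HISAT2 to rn6 and counted them with HTSeq, and deposited the unnormalized counts for each Ensembl gene. Stranded total RNA libraries were made with rRNA removal by the protocol, while the molecule field names polyA RNA. The strand setting of the counting is not given in the sources used here, so overlapping genes on the other strand may share reads. Of 32623 genes, 24345 had a read and 15440 passed filterByExpr. Libraries were scaled by TMM. Tests used edgeR 4.0.16 (R 4.3.3) with all libraries in 1 fit, a mean per group, a prior count of 2 and SEs derived from the F statistic, with calls at an adjusted p under 0.05. Log2 levels used the same prior count. *Ttr* was also compared by exact permutation of the libraries. DESeq2 1.42.0, other scalings, no filter, wt replicate 5 as Dup/+, a replicate block, a multi-mapped term, fits of 2 groups and leaving out libraries were the alternatives. Depths ran from 16191192 to 38760645 gene counts. Lines for reads without a gene (6.94% to 16.1%), ambiguous (0.142% to 0.334%) and multi-mapped reads (40.1% to 76.3%) were left out.

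By the methods of the study the libraries came from separate rats. The members and lists were chosen with earlier results of these data known. Named genes are the 10 members, called genes of the further choroid plexus list, the 10 highest and 3 lowest by r with the index, and at most 2 genes of each other list by mean CPM. The genes listed at 0, *Dcn* and *Prkcd* were named after their values were seen. The edgeR and DESeq2 calls were tested on simulated counts with known changes in Del/+, and the other steps were not simulated. The genes *Slco1a5*, *Foxj1*, *Pecam1*, *Abcb1a*, *Hba-a1*, *Hbb-b1* and *Tmem219* of the lists were not analysed here. Promoter windows of the other members were not used here.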

Additional observations from a re-analysis of the deposited data

How the results depend on the processing

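In edgeR the number of markers called was 0 with other scalings, no filter, wt replicate 5 as Dup/+ and without any 1 library, in all 4 comparisons. It was also 0 in the fits of 2 groups, which tested 7, 7, 8 and 9 markers. With DESeq2 it was 2 in Del/+ (*Ttr* 4.83 and *Kl* 3.49, the only 2 markers given an adjusted p, with 6.93% of all genes judged called) and 4 in Del/Dup (*Ttr* 5.33, *Kl* 4.15, *Clic6* 4.11 and *Kcnj13* 3.37, with 1.19% of all genes judged called). Over the leave-one-out fits, the *Ttr* log2 fold change was 1.48 (without Del/+ replicate 3) to 5.36 in Del/+, 1.27 (without Dup/+ replicate 2) to 3.62 in Dup/+, 4.29 to 5.86 in Del/Dup and -1.61 (without Del/+ replicate 3) to 3.55 in Del/+ against Dup/+. The permutation difference of *Ttr* was 0.91 to 3.85, 0.89 to 2.62, 4.45 to 6.11 and -1.01 to 1.94, and without the 4 libraries highest in *Ttr* the Del/Dup value was 3.41, given with no test because the libraries were removed by the value compared. That set was chosen after seeing the data.

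Between Del/+ and Dup/+, leaving out Del/+ replicate 3 reversed every marker, over ranges of -1.33 to 2.93 for *Kl*, -0.97 to 1.53 for *Folr1*, -1.76 to 2.87 for *Clic6*, -0.54 to 2.29 for *Kcnj13*, -1.43 to 1.89 for *Aqp1*, -0.14 to 1.32 for *Kcne2*, -0.75 to 1.89 for *Prlr* and -1.49 to 3.45 for *Sostdc1*. *Aqp1* in Del/+ ranged from -0.49 to 2.37. A term for the multi-mapped share gave -0.16 for *Ttr*, -0.31 for *Kl*, -0.46 for *Folr1*, -0.76 for *Clic6*, -0.53 for *Aqp1* and -0.62 for *Sostdc1* in Del/+ against Dup/+. That term in effect set Del/+ replicate 4 alone against Dup/+, so these values describe 1 library of Del/+. Values under the next 2 settings test nothing, since the first removes libraries by the level of a marker and the second fits a marker that moved with the other 8. Without the 4 libraries, *Aqp1* was -0.47 in Del/+, and in Del/+ against Dup/+ *Folr1* was -0.38, *Clic6* -0.12, *Aqp1* -0.56 and *Prlr* -0.020. With *Ttr* as a covariate, also added after seeing the data, values turned negative for *Clic6* (-0.27), *Aqp1* (-0.75) and *Prlr* (-0.34) in Del/+, for *Kl* (-0.14), *Clic6* (-0.16), *Kcnj13* (-0.19), *Aqp1* (-0.38), *Kcne2* (-0.037), *Prlr* (-0.54) and *Sostdc1* (-0.14) in Dup/+, for *Folr1* (-0.086), *Clic6* (-0.24), *Aqp1* (-0.69), *Prlr* (-0.088) and *Sostdc1* (-0.077) in Del/Dup, and for *Folr1* (-0.13), *Clic6* (-0.12) and *Aqp1* (-0.37) in Del/+ against Dup/+. The cause of the other reversals was not tested.

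No pairing by replicate number was seen in the levels: over 24 pairs of libraries with 1 number, r of their deviations was -0.17 to 0.12, and 2 pairs were over 0.1. The methods of the study call the wt rats littermates, and which rats shared a litter was not known here. With the replicate block, *Ttr* was 4.28, 2.72, 4.49 and 1.56 and 0 markers were called. The whole tables moved more: over all genes edgeR called 119, 42, 14 and 121, DESeq2 655, 80, 183 and 267, and with wt replicate 5 as Dup/+ edgeR called 81, 12, 57 and 103. With the block the counts were 72, 31, 7 and 88. Leaving out 1 library gave edgeR counts of 46 to 337, 27 to 44, 2 to 216 and 60 to 194. Markers under 1 CPM rest on few reads, such as *Prlr* and *Sostdc1* in wt. Small differences there may have been missed, and the limit of detection was not tested.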

Other observations

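The number of all genes called differed with the libraries in the fit. In Del/+ against wt, edgeR called 119 genes with all 19 libraries, 361 without the 4 libraries highest in *Ttr* and 51 with the *Ttr* level as a covariate. In Del/Dup against wt the counts were 14, 2 and 3, in Dup/+ against wt 42, 34 and 30, and in Del/+ against Dup/+ 121, 107 and 114. Both settings were chosen after seeing the data, and the cause was not tested. Single libraries moved the counts as far: in Del/+ against wt the count was 337 without Del/Dup replicate 2 and 46 without Del/+ replicate 2, where *Ttr* was at 2.38 CPM, and in Del/Dup against wt leaving out Del/Dup replicate 3 gave 216 and leaving out replicate 4 gave 2.

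In the 36 groups of 4 to 6 libraries (9 markers, 4 genotypes), Dixon's test marked 0 single libraries as standing apart on the log2 CPM scale and 16 on the CPM scale. Chance marks about 1 in 20 groups where values are normal and groups separate. The 9 markers moved together over the same libraries, so that rate is no benchmark for the 16.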
